A study of Homo sapiens with 12 samples.

Results

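The interleukin 1 family members examined here were the ligands IL1A, IL1B, IL18 and IL33, the receptor antagonist IL1RN, the receptors IL1R1 and IL1RL1, the decoy receptor IL1R2 and the shared accessory chain IL1RAP. Every probe set whose deposited gene symbol was one of these 9 names was taken, which gave 21 of 54613 probe sets and 9 of 19706 genes (the symbol alone decided which probe sets entered). They were followed in Ect1 cells, which come from human ectocervical epithelium and were immortalised by papillomavirus oncogenes. The groups were seminal plasma (10% by volume, pooled from human donors), TGFB3 (the growth factor at 5 ng/ml) and control (medium alone), each applied for 10 h to a confluent monolayer. All 3 groups shared a serum-free keratinocyte medium that already held recombinant EGF, bovine pituitary extract and added calcium. Each group had 4 Affymetrix Human Genome U133 Plus 2.0 arrays, 1 per biological replicate, and the RNA of each replicate was pooled from a set of 4 wells. The model is a single immortalised line, so it holds no leukocytes or stroma of its own, and precision is limited by the small number of arrays.

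Interleukin 1 alpha and beta bind IL1R1, which then recruits IL1RAP and signals through MYD88 and IRAK kinases to NF-kappaB. IL1RN occupies IL1R1 without signalling, and IL1R2 binds the ligands without passing on a signal. IL33 signals through IL1RL1, also called ST2, together with IL1RAP, and a soluble form of ST2 made from the same gene traps IL33. Squamous epithelia store IL1A and IL33 as alarm signals that are released on damage.

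Most of these genes lie in 2 runs on chromosome 2, with IL1R2, IL1R1, IL1RL2, IL1RL1, IL18R1 and IL18RAP in that order and, farther along, IL1A, IL1B and then the IL36 genes up to IL1RN. RefSeq start-site windows of 250 bases before to 50 after the start, in GRCh38.p14, were found for 8 of the 9 members, 17 windows in all. Those of IL1RL1 are shown because it is the member that moved most with seminal plasma, and its start sites are known to be used in different cells, the upstream one in mast cells and the downstream one in fibroblasts. One of the 2 IL1A windows is shown because IL1A is the member with the largest difference between TGFB3 and control arrays. Each is written 5′ to 3′ along the gene, and capitals mark motif matches, searched on both strands. The letters of the AP-1 motif were TGANTCA. For the GATA factors they were AGATAA, and for the TATA box they were TATAAA.
IL1RL1 upstream start, chr2:102311313-102311612, plus strand: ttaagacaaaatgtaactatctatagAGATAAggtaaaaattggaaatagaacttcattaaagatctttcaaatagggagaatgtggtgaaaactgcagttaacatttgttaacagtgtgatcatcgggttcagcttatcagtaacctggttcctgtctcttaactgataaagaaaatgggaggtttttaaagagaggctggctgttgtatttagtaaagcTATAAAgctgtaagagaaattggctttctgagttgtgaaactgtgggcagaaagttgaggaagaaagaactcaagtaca
IL1RL1 downstream start, chr2:102337007-102337306, plus strand: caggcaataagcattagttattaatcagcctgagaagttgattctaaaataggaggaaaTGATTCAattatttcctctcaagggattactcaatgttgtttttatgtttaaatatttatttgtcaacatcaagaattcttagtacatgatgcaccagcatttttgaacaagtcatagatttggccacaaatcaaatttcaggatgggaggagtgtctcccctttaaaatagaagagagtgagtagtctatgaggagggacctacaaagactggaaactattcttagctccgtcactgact
IL1A, chr2:112784444-112784743, minus strand: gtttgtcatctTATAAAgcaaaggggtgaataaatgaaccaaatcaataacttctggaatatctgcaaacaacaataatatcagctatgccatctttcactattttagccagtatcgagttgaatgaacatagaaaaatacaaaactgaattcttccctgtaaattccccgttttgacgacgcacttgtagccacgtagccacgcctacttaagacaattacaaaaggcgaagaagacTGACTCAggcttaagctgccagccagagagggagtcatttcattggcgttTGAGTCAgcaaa
The upstream IL1RL1 window held a GATA match that began at -224 and a TATA match at -29 from the start site, and the downstream window an AP-1 match at -191. The IL1A window shown held AP-1 matches at -12 and 39 and a TATA match at -239. In the other IL1A window, set by a second start site, the same AP-1 letters lay at -105 and -55, and the TATA match fell outside it. Among 34943 windows of 300 bases in the same table, 7.72% held the AP-1 letters, 10.4% the GATA letters and 11.6% the TATA letters. The letters of a cAMP response element, TGACGTCA (1.84% of windows), and of the SMAD palindrome, GTCTAGAC (0.203%), matched in none of the 17 windows of the members. An NF-kappaB motif (11.3% of windows) matched in an IL1R2 window, at -125, and in no other window of the members. A match describes the sequence and is not a measured site.

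Signals are linear array units, and fold changes are differences of mean log2 signals after values under 16 were set to 16, which understates changes near that floor. All 10 squamous keratinocyte markers averaged at least 100 in the 12 arrays, which fits the labelled cell type. Replicates 3 and 4 of seminal plasma differed from the other 10 arrays. Their median signals were 177.6 and 131.5, against 88.1 to 107.1, with 8.01% and 12.8% of probe sets under 16, against 16.3% to 20.2%. Values without this pair are given where they change a call. The pair shifted the whole distribution: the median log2 fold change of seminal plasma over control was 0.2 over all probe sets, 0 without these arrays, 0.01 after quantile normalization and -0.19 after centring each array on its median. Of the 1608 probe sets called over the whole array, 948 were higher and 660 lower, whereas centring on the median gave 299 higher and 488 lower.

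The comparison of seminal plasma with control asks which transcripts ectocervical cells change on contact with seminal fluid. IL1RL1 rose, by 18.0-fold and 3.38-fold at its 2 called probe sets, and no other member passed the test in either direction. Of 21 member probe sets, 2 were higher, 0 were lower and 19 did not pass a limma adjusted p of 0.05, while 2.94% of all probe sets were called. By gene that is 1 of 9, with 3.25% of all genes called by the same rule. The 4 seminal plasma arrays lay entirely above the 4 control arrays at 5 member probe sets and entirely below at 0, and 13.2% of all probe sets had groups that did not overlap. The median log2 fold change over the 21 probe sets was 0.46. In bulk RNA a change in the number of expressing cells and a change in RNA per cell cannot be told apart.

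IL1RL1 was read by 4 probe sets. Probe set 207526_s_at gave 4102, 370, 2327 and 1431 in seminal plasma replicates 1 to 4, then 124, 101, 113 and 106 with TGFB3, and 59.6, 123, 96.6 and 68.8 in control. Every seminal plasma array lay above every array of the other groups, and within seminal plasma the highest was 11.1 times the lowest. Its log2 fold change over control was 4.17 ± 0.59 (SE of the 12-array fit, n = 4 per group, 95% interval 2.85 to 5.48), with a limma adjusted p of 0.0113. The call held in 12 of 12 fits that left out 1 array. It was lost without seminal plasma replicates 3 and 4 (3.88, limma adjusted p 0.0734) and in a fit of only the 2 groups compared (adjusted p 0.0671).

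The second probe set, 242809_at, gave 1191, 509, 716 and 583 with seminal plasma, 218, 233, 183 and 166 with TGFB3, and 203, 259, 179 and 206 in control. Again the seminal plasma arrays lay above all others, here with a narrower spread. It was higher than control by 1.76 ± 0.26 on the log2 scale (SE, n = 4 per group), the limma adjusted p was 0.0125, and 12 of 12 fits with 1 array left out kept the call. It held without seminal plasma replicates 3 and 4 (1.89, limma adjusted p 0.0452), and was lost with median centring (1.37, adjusted p 0.0534) and in the fit of only the 2 groups compared (adjusted p 0.0637).

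Probe set 234066_at gave 496, 196, 445 and 156 with seminal plasma, 104, 84.0, 167 and 193 with TGFB3, and 69.3, 25.1, 132.98 and 83.4 in control. The seminal plasma arrays lay above the controls and overlapped the TGFB3 arrays. Its log2 fold change of 2.11 ± 0.55 over control (SE, n = 4 per group) did not pass, with a limma adjusted p of 0.0617. The last probe set, 210442_at, was close to the floor, between 18.2 and 43.1 with seminal plasma, between 13.7 and 37.1 with TGFB3 and between 8.09 and 25.9 in control. It did not separate the groups (log2 fold change 0.46, limma adjusted p 0.402). Which IL1RL1 transcript, membrane or soluble, each probe set reads was not analysed here.

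In the authors' deposited table the fold of seminal plasma over control was 23.7, 3.54 and 4.16 for 207526_s_at, 242809_at and 234066_at, and all 3 were called. That table called 4 of the 21 member probe sets in this comparison, while it called 7.24% of all probe sets. Every probe set it called had a fold of at least 2.0 in either direction and a deposited p-value (test not stated) of at most 0.0499.

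Markers of other RNA sources were summed on each array and are given as the range within each group. They were not set against IL1RL1 array by array. The summed signal of 9 sperm, prostate and seminal vesicle genes ran from 1308 to 1870 with seminal plasma, above both other groups. It ran from 835 to 1233 with TGFB3 and from 934 to 1239 in control. None of the 9 was at 0 and 1 of them was under the floor on all 12 arrays. Means with seminal plasma and in control were 734 and 511 for KLK3, 198 and 92.6 for MSMB, and 169 and 53.4 for PRM1. ACP3 alone of the 9 was lower with seminal plasma than in control, with 98.4 and 166. The sum over 5 endothelial genes ran from 434 to 780 with seminal plasma, from 369 to 590 with TGFB3 and from 262 to 425 in control. None of the genes in these lists passed the test. The 10 leukocyte genes summed to between 695 and 1631 with seminal plasma, between 1230 and 1455 with TGFB3 and between 1418 and 1743 in control. Of these 10, 1 passed against control, LYZ, lower with means of 11.8 with seminal plasma and 50.9 in control. Others, not past the test, had higher means with seminal plasma than in control: PTPRC with 63.7 and 15.1, MS4A1 with 125 and 62.6, and ITGAM with 141 and 56.8. CSF1R was lower with seminal plasma (mean 194) than with TGFB3 (mean 563). TPSAB1, a mast cell tryptase, averaged 51.9, 74.7 and 84.5 in the seminal plasma, TGFB3 and control arrays. Over 5 columnar epithelial genes the sum ran from 38621 to 49589 with seminal plasma, from 23781 to 32374 with TGFB3 and from 23914 to 30352 in control, so that seminal plasma lay above both. Of these 5, KRT18, a keratin of simple epithelia, passed, with means of 34290 with seminal plasma, 18946 with TGFB3 and 18841 in control. KRT8 too was bright in control cells, with a mean of 8007. In the seminal plasma, TGFB3 and control arrays TFF3 averaged 161, 50.6 and 17.7, MUC5AC 213, 280 and 206, and MUC5B 14.4, 8.74 and 11.6. The sum of the 10 squamous keratinocyte genes also lay above both, from 360872 to 569723 with seminal plasma. It ran from 246265 to 345066 with TGFB3 and from 208533 to 331512 in control. Very bright genes weigh most in it: with seminal plasma and in control SFN averaged 101773 and 36488, and KRT14 84681 and 40556. KRT16 (4912 and 7745), DSG3 (3143 and 5161) and TP63 (6012 and 6581) were lower with seminal plasma, and the rest higher. The 100 brightest probe sets held 18.4% and 15.4% of the signal in seminal plasma replicates 3 and 4. On the other 10 arrays they held 7.66% to 11.6%. The single marker genes were named after their values were seen. The part of these RNA sources in the IL1RL1 result was not tested.

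**Figure D1:**
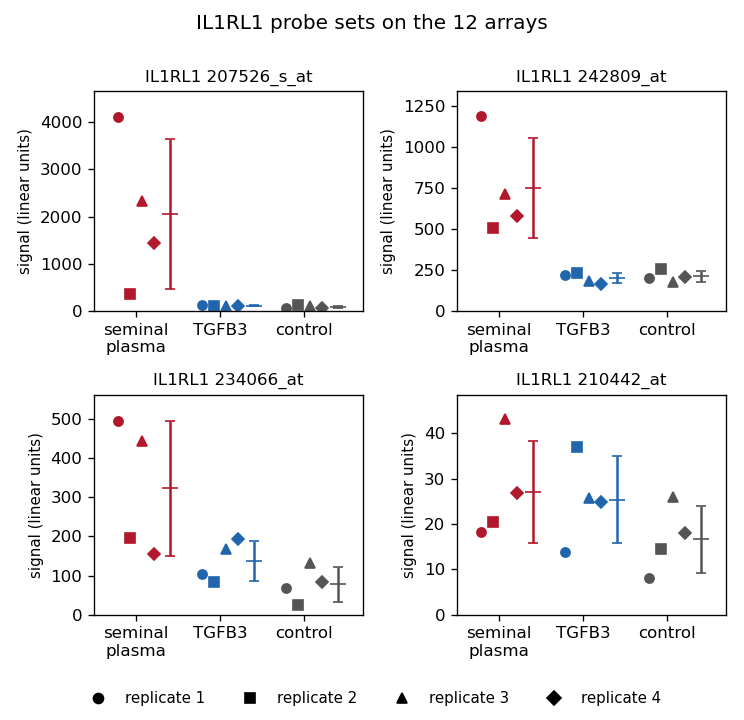
Signal of the 4 IL1RL1 probe sets (linear array units, 1 panel each with its own axis) in seminal plasma, TGFB3 and control arrays. Symbols are replicates 1 to 4 and the bar to the right of each group is the mean ± SD (n = 4). At 207526_s_at and 242809_at every seminal plasma array lies above all TGFB3 and control arrays, and at 210442_at the 3 groups overlap.

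IL33, the ligand of IL1RL1, was at or near the floor in control cells. Its probe set gave 118, 204, 7.59 and 64.3 with seminal plasma, 14.2, 41.3, 23.02 and 3.9 with TGFB3, and 1.45, 3.25, 17.9 and 6.19 in control. Signal was above every control in 3 of the 4 seminal plasma arrays, while replicate 3 was under the floor, as were 3 of the 4 controls. The log2 fold change was 2.10 ± 0.65 (SE, n = 4 per group) and did not pass (limma adjusted p 0.089). It passed without seminal plasma replicate 3 (2.81, adjusted p 0.0204) and without replicates 3 and 4 (3.24, adjusted p 0.0143), in which 3 of 4 controls are still set to the floor, and with array weights (2.69, adjusted p 0.0188). Against TGFB3 it was 1.67 ± 0.65 and did not pass (limma adjusted p 0.169), and it passed without seminal plasma replicate 3 (2.38, adjusted p 0.0436) and without replicates 3 and 4 (2.80, adjusted p 0.0279). For TGFB3 over control the log2 fold change was 0.43 (limma adjusted p 0.993). The authors' deposited table gave IL33 a fold of 13.67 for seminal plasma over control, with a deposited p-value of 0.0294 (test not stated). It did not call IL33, and the reason is not given.

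IL1A, the alpha ligand, had the highest values in TGFB3 arrays. Probe set 210118_s_at gave 4219, 3940, 796 and 1688 with seminal plasma, 3110, 5285, 6033 and 2377 with TGFB3, and 912, 1098, 1649 and 1618 in control. All TGFB3 arrays lay above all controls, while seminal plasma replicates 1, 2 and 4 lay above and replicate 3 below every control. TGFB3 over control came to a log2 fold change of 1.62 ± 0.52 (3.06-fold, 95% interval 0.46 to 2.77 on the log2 scale, n = 4 per group), which did not pass after adjustment over all probe sets (limma p 0.0108, adjusted p 0.406). With array weights the adjusted p was 0.0361, and the authors' deposited table called it, with a fold of 3.18. For seminal plasma over control the log2 fold change was 0.77 ± 0.52 (limma adjusted p 0.384). The dimmer probe set 208200_at did not show the TGFB3 difference, with means of 143 ± 17.0 in TGFB3 and 134 ± 28.9 in control arrays (SD, n = 4 each).

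IL1B, the beta ligand, was read by 2 probe sets that varied widely between arrays of 1 treatment. At 205067_at the signals were 1958, 2835, 611 and 998 with seminal plasma, 889, 2557, 2764 and 872 with TGFB3, and 815, 820, 1422 and 1446 in control. TGFB3 replicates 2 and 3 were near seminal plasma replicate 2, and TGFB3 replicates 1 and 4 were within the control range. At 39402_at the 4 seminal plasma arrays, from 1374 to 2134, lay above the controls, from 766 to 1156, and the TGFB3 arrays, from 693 to 2352, spanned both. The log2 fold change of seminal plasma over control was 0.32 ± 0.55 at the first and 0.87 ± 0.41 at the second (SE, n = 4 per group), and neither passed (limma adjusted p 0.738 and 0.213). Over control, TGFB3 gave 0.50 and 0.37 on the log2 scale, both with a limma adjusted p of 0.972.

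IL18, made as a precursor that caspase 1 cuts, did not pass in any comparison. It gave 1404, 701, 898 and 749 with seminal plasma, 954, 1593, 1272 and 749 with TGFB3, and 783, 765, 846 and 769 in control. Control arrays spanned only 1.11 times, while the treated groups spanned 2.0 times with seminal plasma and 2.13 times with TGFB3. Neither the log2 fold change of seminal plasma, 0.19, nor that of TGFB3, 0.47, over control passed (limma adjusted p 0.685 and 0.8).

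IL1RN, the antagonist, was measured by 5 probe sets and none passed in any comparison. At 212657_s_at the signals were 1741, 1806, 1957 and 449 with seminal plasma, 1010, 862, 827 and 547 with TGFB3, and 1620, 1707, 1020 and 1434 in control. Every TGFB3 array was below every control, by a margin of 1010.2 against 1019.9 at the closest pair, and seminal plasma replicate 4 was the lowest of all. TGFB3 over control gave a log2 fold change of -0.84 ± 0.44 (SE, n = 4 per group, limma adjusted p 0.752). At 212659_s_at and 216243_s_at TGFB3 and control arrays overlapped, with log2 fold changes of -0.27 and -0.50. The other two, 216245_at and 216244_at, were under the floor on 9 and 7 of 12 arrays.

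**Figure D2:**
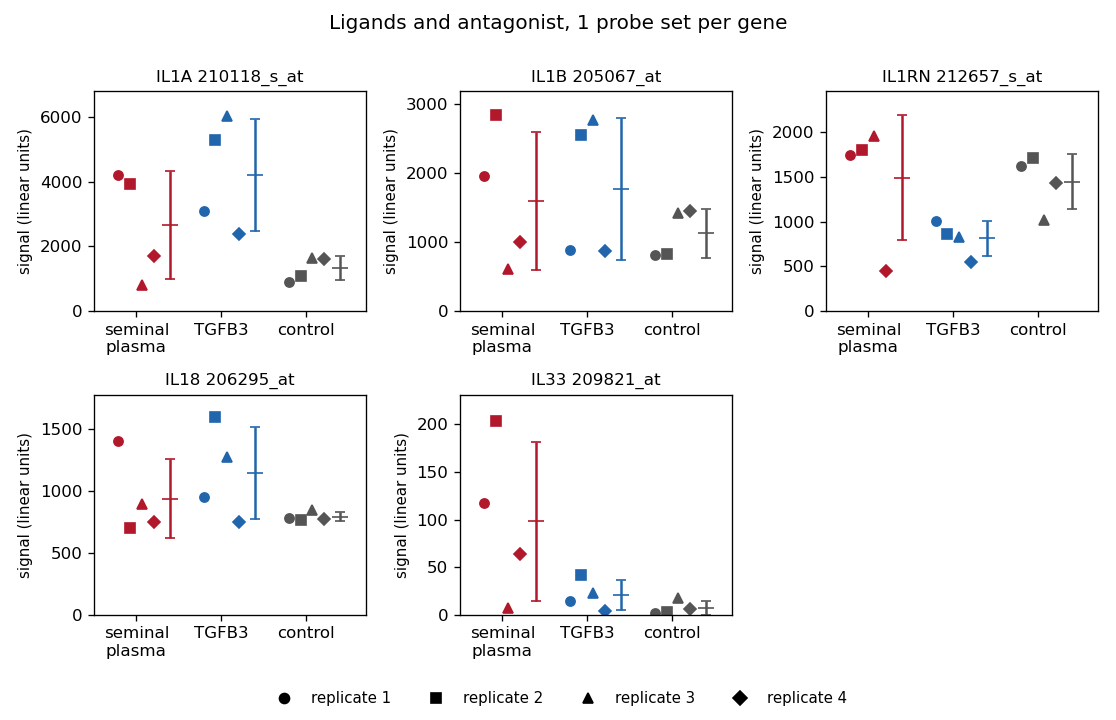
Signal (linear array units, 1 panel per gene with its own axis) of IL1A, IL1B, IL1RN, IL18 and IL33, each by its brightest probe set in mean, in seminal plasma, TGFB3 and control arrays. Symbols are replicates 1 to 4 and bars are mean ± SD (n = 4), cut at 0. For IL1A the 4 TGFB3 arrays, 2377 to 6033, lie above the controls, 912 to 1649, and for IL1RN they lie below them.

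IL1R1, the signalling receptor of IL1A and IL1B, lay above control with seminal plasma and below it with TGFB3. At 202948_at the signals were 688, 853, 1463 and 861 with seminal plasma, 441, 307, 279 and 431 with TGFB3, and 579, 523, 450 and 498 in control. The order of seminal plasma, then control, then TGFB3 held without overlap between any groups. Set against control, neither difference passed: the log2 fold change was 0.86 ± 0.25 for seminal plasma (limma adjusted p 0.0774) and -0.52 ± 0.25 for TGFB3 (limma adjusted p 0.703, SE, n = 4 per group). The seminal plasma log2 fold change at 202948_at was 0.47 with median centring (limma adjusted p 0.265). Without seminal plasma replicates 3 and 4 it was 0.59 (adjusted p 0.27). The dimmer 215561_s_at overlapped throughout, with log2 fold changes of 0.56 and -0.12.

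IL1R2, the decoy receptor, varied widely within each group. At 205403_at the signals were 186, 563, 479 and 697 with seminal plasma, 328, 49.8, 70.7 and 112 with TGFB3, and 280, 326, 158 and 161 in control. Seminal plasma replicates 2 to 4 lay above all controls and TGFB3 replicates 2 to 4 below them, while replicate 1 of both treatments did not follow. The log2 fold change over control was 0.98 ± 0.59 for seminal plasma and -1.04 ± 0.59 for TGFB3 (SE, n = 4 per group), and neither passed (limma adjusted p 0.324 and 0.794). The authors' deposited table gave folds of 2.08 and -1.65 and called the first. At 211372_s_at the same replicates stood apart, with 39.1 in seminal plasma replicate 1 against 232 to 311 in replicates 2 to 4, and 218 in TGFB3 replicate 1 against 20.3 to 49.0 in replicates 2 to 4.

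IL1RAP, the accessory chain that IL1R1 and IL1RL1 share, was lowest in mean with seminal plasma. At 210233_at the signals were 490, 646, 316 and 590 with seminal plasma, 1164, 728, 725 and 693 with TGFB3, and 1191, 849, 572 and 542 in control. The seminal plasma arrays lay below all TGFB3 arrays and overlapped the controls. The log2 fold change of seminal plasma over control was -0.60 ± 0.31 (SE, n = 4 per group, limma adjusted p 0.259) and that of TGFB3 0.11 (adjusted p 1.0). The probe set 205227_at gave -0.46 and 0 for the same comparisons.

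**Figure D3:**
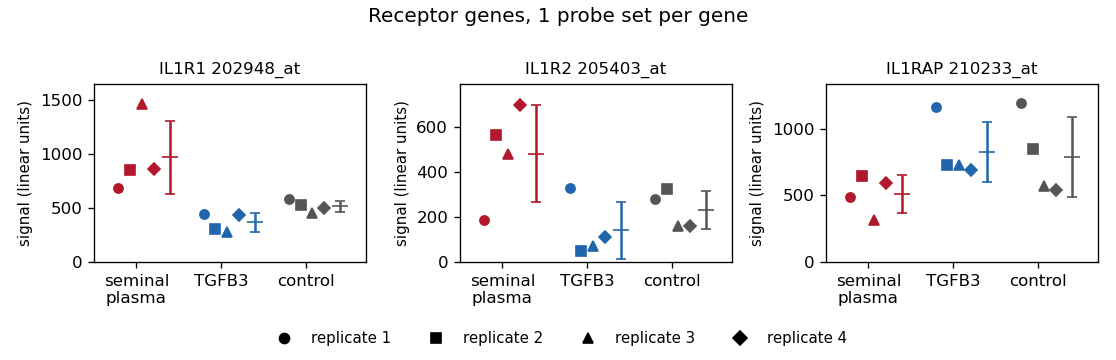
Signal (linear array units, 1 panel per gene with its own axis) of IL1R1, IL1R2 and IL1RAP, each by its brightest probe set in mean, in seminal plasma, TGFB3 and control arrays. Symbols are replicates 1 to 4 and bars are mean ± SD (n = 4). For IL1R1 the groups do not overlap, with 688 to 1463 in seminal plasma, 279 to 441 in TGFB3 and 450 to 579 in control arrays.

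TGFB3 against control asks how much of the response a single seminal growth factor gives. Of the 21 member probe sets 0 passed in limma, where 0.19% of all probe sets did, and by gene 0 of 9 passed, against 0.294% of all genes. At an unadjusted p under 0.05 there was 1 (IL1A 210118_s_at), and array weights called that 1. The TGFB3 arrays lay entirely above the controls at 1 probe set and entirely below at 2 (IL1R1 202948_at and IL1RN 212657_s_at), and 7.98% of all probe sets did not overlap. The median log2 fold change of the members was 0.02, and over all probe sets it was 0. IL1RL1 at 207526_s_at had a log2 fold change of 0.41 with a 95% interval from -0.91 to 1.72, and at 242809_at one of -0.08 with an interval from -0.66 to 0.49. Both intervals rest on the spread shared by all 12 arrays, seminal plasma included. At 207526_s_at the highest array was 11.1 times the lowest with seminal plasma, 1.22 times with TGFB3 and 2.06 times in control. The authors' deposited table called 1 of 21, IL1A, and 1.62% of all probe sets.

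Seminal plasma and TGFB3 were compared directly to test the difference between the treatments. IL1RL1 and IL1R1 were higher with seminal plasma than with TGFB3, at 3 of 21 probe sets, 0 were lower and 18 did not pass, where 1.73% of all probe sets were called. The calls over the whole array split into 519 higher and 426 lower, and into 119 higher and 250 lower with median centring. By gene that is 2 of 9, with 1.96% of all genes called. The log2 fold change was 3.76 ± 0.59 at IL1RL1 207526_s_at (limma adjusted p 0.0233), 1.84 ± 0.26 at IL1RL1 242809_at (adjusted p 0.0154) and 1.38 ± 0.25 at IL1R1 202948_at (adjusted p 0.0314, SE, n = 4 per group). IL1R2 205403_at, at 2.02 ± 0.59, did not pass (limma adjusted p 0.0967), except in a trended robust fit (adjusted p 0.0454). Groups lay apart at 4 member probe sets, 3 with seminal plasma above TGFB3 and 1 with it below (IL1RAP 210233_at, log2 fold change -0.71 ± 0.31, limma adjusted p 0.215), and 9.97% of all probe sets did not overlap. The median log2 fold change was 0.50 over the members and 0.17 over all probe sets.

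These 3 calls were less steady than those against control. With 1 array left out, 8, 11 and 5 of 12 fits kept IL1RL1 207526_s_at, IL1RL1 242809_at and IL1R1 202948_at. Leaving out TGFB3 replicate 3 left 0 member calls, leaving out seminal plasma replicate 4 or TGFB3 replicate 2 or 4 left 1, and without seminal plasma replicate 3 there were 4. Without seminal plasma replicates 3 and 4, IL1RL1 242809_at passed (limma adjusted p 0.0434), while IL1RL1 207526_s_at (adjusted p 0.106) and IL1R1 (1.10 on the log2 scale, adjusted p 0.0762) did not. IL33 209821_at, not called with all arrays, passed in that fit (adjusted p 0.0279).

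**Figure D4:**
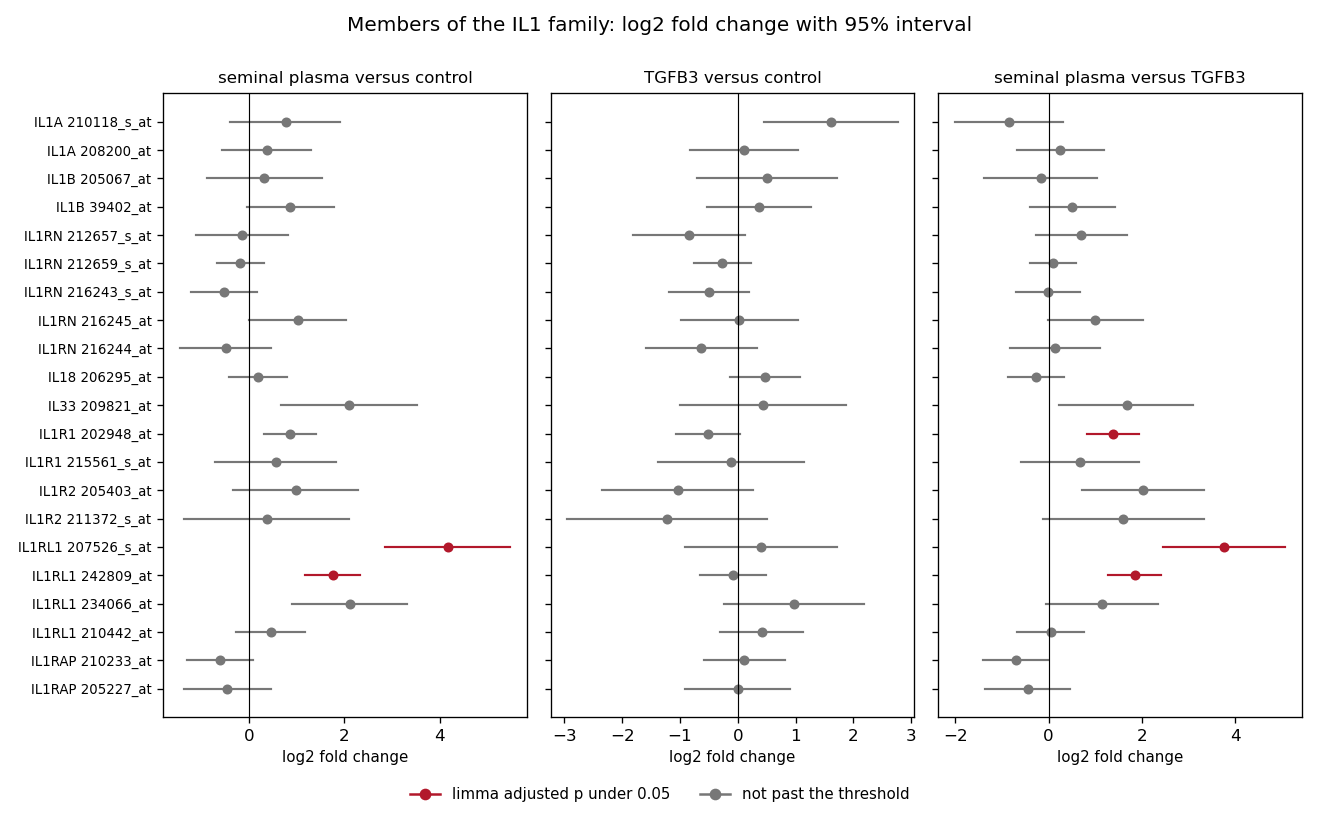
Log2 fold change with its 95% interval (x axis) for the 21 member probe sets (y axis) in 3 panels: seminal plasma against control, TGFB3 against control, and seminal plasma against TGFB3. Red marks a limma adjusted p under 0.05: 2 probe sets in the first panel, 0 in the second and 3 in the third, and the intervals of IL1RL1 207526_s_at reach 2.85 to 5.48 against control.

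The rest of the pathway was counted in 3 lists, 1 probe set per gene. Over all genes, 3.25% were called for seminal plasma against control, 0.294% for TGFB3 against control and 1.96% for seminal plasma against TGFB3. Among 13 other family ligands, receptors and binding proteins, 0 passed in any comparison. The smallest p values with seminal plasma were those of IL18R1, a chain of the interleukin 18 receptor, with a log2 fold change of 0.69 ± 0.25 over control (limma adjusted p 0.131), and IL36G, an epithelial family ligand, with 1.86 ± 0.71 (adjusted p 0.143). With TGFB3 they were those of IL36G (1.51 ± 0.71, limma adjusted p 0.692) and IL1RAPL2 (1.54 ± 0.74, adjusted p 0.698). The median log2 fold change of the list was 0.15 with seminal plasma and 0.11 with TGFB3, beside 0.11 and -0.01 over all genes.

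Of 17 measured processing and inflammasome genes, NLRP1 rose in both treatments and 16 did not pass. The shares called over all genes were 3.25% with seminal plasma and 0.294% with TGFB3. NLRP1 is a sensor that assembles the caspase 1 inflammasome in human keratinocytes. Its signals were 327, 225, 592 and 235 with seminal plasma, 320, 563, 496 and 412 with TGFB3, and 46.4, 88.4, 37.6 and 64.9 in control. Both treated groups lay above every control and overlapped each other. Over control, the log2 fold change was 2.50 ± 0.36 for seminal plasma (limma adjusted p 0.0118, passed in 12 of 12 fits with 1 array left out) and 2.96 ± 0.36 for TGFB3 (adjusted p 0.00978, 10 of 12 fits). The treatments share the control arrays. Between seminal plasma and TGFB3 the log2 difference was -0.46 (limma adjusted p 0.471). The list median was 0.58 with seminal plasma and -0.10 with TGFB3, beside 0.11 and -0.01 over all genes.

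Of 28 measured genes of receptor signal transduction, TNFAIP3 and NFKBIA rose with seminal plasma, 0 fell and 26 did not pass. Over all genes 3.25% were called in this comparison. TNFAIP3 and NFKBIA are induced by NF-kappaB and restrain it, TNFAIP3 as the enzyme A20 and NFKBIA as the inhibitor that holds NF-kappaB in the cytoplasm. TNFAIP3 gave 8174, 4377, 12185 and 12896 with seminal plasma, 2507, 4060, 4012 and 1213 with TGFB3, and 1479, 1737, 1533 and 1680 in control. The seminal plasma arrays were above all others, and TGFB3 replicate 4 was the lowest of the 12. Its log2 fold change over control was 2.43 ± 0.43 (limma adjusted p 0.0221, passed in 6 of 12 fits with 1 array left out), and without seminal plasma replicates 3 and 4 it was 1.90 (adjusted p 0.124).

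NFKBIA gave 13871, 7987, 13126 and 8167 with seminal plasma, 4553, 6039, 5830 and 4989 with TGFB3, and 5199, 4850, 5748 and 5543 in control. Seminal plasma arrays were again above all others, and TGFB3 and control overlapped. Its log2 fold change over control was 0.97 ± 0.21 (limma adjusted p 0.0422, passed in 1 of 12 fits), with an adjusted p of 0.0914 without seminal plasma replicates 3 and 4. It was the 1 gene of this list that differed between seminal plasma and TGFB3 (0.97, limma adjusted p 0.0497), and that call too held in 1 of 12 fits with 1 array left out and was lost without seminal plasma replicates 3 and 4 (0.98, adjusted p 0.1).

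With TGFB3, 0 of the 28 passed, where 0.294% of all genes did. The smallest p values were those of JUN, an AP-1 subunit, at 2.36 ± 0.43 (limma adjusted p 0.0769) and PELI2, a ubiquitin ligase of the IRAK complex, at 1.34 ± 0.29 (adjusted p 0.149). JUN gave 4283, 10265, 11511 and 7514 with TGFB3 and 1273, 1597, 1379 and 1947 in control, without overlap, and passed when seminal plasma replicates 3 and 4 were left out of the shared fit (adjusted p 0.0265). The list median was 0.07 with seminal plasma and -0.02 with TGFB3, beside 0.11 and -0.01 over all genes.

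Among 13127 genes with a mean signal of at least 100, those whose log2 signals followed the called members most closely over the 12 arrays were sought as a description. For IL1RL1 they were HMOX1, heme oxygenase, with a Pearson correlation of 0.98, and RPPH1, the RNA of ribonuclease P, with 0.97. RPPH1 met the mean of 100 only through seminal plasma (mean 344, against 9.59 with TGFB3 and 8.59 in control), and the 8 TGFB3 and control arrays were all under the floor, so its correlation is largely set by the filter and the floor. HMOX1 gave 12605, 675, 3981 and 1961 with seminal plasma, from 249 to 306 with TGFB3 and from 127 to 226 in control. The seminal plasma replicates were in the same order for HMOX1 as for IL1RL1 207526_s_at. HMOX1 was picked for its correlation with that probe set on these arrays, so the shared order is not a separate result. For IL1R1 the closest were SRPRB, a subunit of the signal recognition particle receptor, and ATG4B, an autophagy protease, both at 0.96. All of these points share the 3 treatment groups and the arrays that stood apart, so the correlations describe these 12 arrays and have no test.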

How the data were processed

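The authors deposited linear intensity values, 1 for each probe set on each array, and a second table with the same intensity values (largest difference 0), the authors' signed fold as a score, a p-value and a call. The submitters' processing notes name MAS5, RMA, Partek, GCOS 1.4 and R 2.6.1 without saying what each did. The trimmed mean lay between 493.3 and 498.4 on all 12 arrays. How the authors tested to get the deposited p-value is not stated in any label used here, and labelling is described in 2 ways in the labels. No columns of other samples were present (0).

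Here signals were floored at 16 before taking log2. limma 3.58.1 in R 4.3.3 (lmFit, eBayes) fitted 1 mean per treatment to all 12 arrays, with Benjamini-Hochberg adjustment over 54613 probe sets and a threshold of 0.05. Standard errors come from this shared spread (9 residual degrees of freedom). The fit was tested on simulated data. Tables and figures used Python 3.11.15, pandas 2.3.3, numpy 2.4.6 and matplotlib 3.10.9. All 9 members were named with every probe set. A gene's main probe set had the highest mean over the 12 arrays. From each list, up to 4 called genes, or the 2 with the smallest p, were named. The lists hold 13, 18 and 29 genes, and CARD16 and UBE2V1 were not used here. Further marker lists were keratinocyte, leukocyte, endothelial, fibroblast, columnar and sperm or prostate genes. Fibroblast genes summed to between 929 and 1610 with seminal plasma, between 2333 and 3687 with TGFB3 and between 931 and 2668 in control. The members and lists were chosen with earlier results of these data known. Sequences and gene order come from RefSeq tables of GRCh38.p14, where IL18 had no window. Alternatives were quantile normalization, median centring, another floor or pseudocount, a filter on dim probe sets, a replicate block, array weights, a trended robust fit, fits of 2 groups, and leaving out arrays.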

Additional observations from a re-analysis of the deposited data

Results flagged for a closer look

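Of 63 groups of 4 arrays, 7 held an array far from the other 3 by Dixon's ratio, and chance alone gives about 1 in 20. That rate is no guide where the other arrays are tied at the floor. This was so for IL33 in control and for IL1RN 216245_at and 216244_at with TGFB3. IL1RN 212657_s_at was 448.69 in seminal plasma replicate 4, against 1741 to 1957 in the other seminal plasma arrays. IL1R2 211372_s_at was 39.09 in seminal plasma replicate 1, below the other seminal plasma arrays. IL1RAP 210233_at was 1164.26 in TGFB3 replicate 1, against 693 to 728 in the other TGFB3 arrays. IL33 was 17.87 in control replicate 3, the 1 control above the floor. The remaining 3 lay near or under the floor: IL1RN 216245_at at 17.05 in TGFB3 replicate 3, IL1RN 216244_at at 32.9 in seminal plasma replicate 2, and the same probe set at 25.24 in TGFB3 replicate 1.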

How the results depend on the processing

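The 5 member calls kept their direction under all 9 alternatives that keep every array, in all 12 fits with 1 array left out and without seminal plasma replicates 3 and 4, but not all kept their side of the threshold. For seminal plasma versus control the 2 member calls became 1 with median centring, 0 with only the 2 groups compared, and 2 to 3 with 1 array left out. They became 3 with log2 of signal plus 16, the filter on dim probe sets and a trended robust fit, which add IL1RL1 234066_at, and with array weights, which add IL33 (2.69, limma adjusted p 0.0188). For TGFB3 versus control the 0 calls became 1 with array weights and stayed at 0 to 0 with 1 array left out. For seminal plasma versus TGFB3 the 3 calls became 1 with median centring, 0 with only the 2 groups compared, 4 with a trended robust fit, which adds IL1R2 205403_at (adjusted p 0.0454), and 0 to 4 with 1 array left out. With replicate number as a block they became 0, and the 2 calls of seminal plasma versus control were kept. Same-numbered arrays deviated together with a correlation of -0.091 to 0.154, and 5, 4 and 1 of 8 arrays correlated best with their own number. These values do not settle whether the numbers pair the samples. Fits of 2 groups differ from the main fit both in the number of arrays and in the shared spread. The cause of these changes was not tested.

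Over all probe sets, calls numbered 1608 for seminal plasma against control, 104 for TGFB3 against control and 945 for seminal plasma against TGFB3. In the same order they numbered 787, 61 and 369 with median centring, 2112, 167 and 1454 with a floor of 32, 307, 21 and 47 with the block, 1755, 1771 and 682 with array weights, 3666, 228 and 2352 with a trended robust fit, and 197, 300 and 12 with 2 groups. Without seminal plasma replicates 3 and 4 they numbered 539, 296 and 394, and with 1 array left out from 270 to 8900, from 35 to 142 and from 91 to 7055.

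Of 63 member results 20 changed sign somewhere, none of them called, and all with a log2 fold change of at most 0.85 in size. For seminal plasma versus control, median centring gave -0.02 for IL1A 208200_at, -0.06 for IL1B 205067_at, -0.2 for IL18 and -0.02 for IL1R2 211372_s_at. Array weights gave -0.14 for IL1A 208200_at, 0.14 for IL1RN 212657_s_at and -0.25 for IL1R2 211372_s_at. Leaving out seminal plasma replicates 3 and 4 gave -0.48 for IL1A 208200_at, 0.32 for IL1RN 212657_s_at, -0.53 for IL1R1 215561_s_at, -0.3 for IL1R2 211372_s_at and 0.01 for IL1RAP 205227_at. With 1 array left out the ranges were -0.04 to 0.66 for IL1A 208200_at, -0.03 to 0.71 for IL1B 205067_at, -0.34 to 0.37 for IL1RN 212657_s_at and -0.02 to 0.31 for IL18. For TGFB3 versus control, median centring gave -0.04 for IL1RN 216245_at, and with 1 array left out the ranges were -0.32 to 0.15 for IL1R1 215561_s_at, -0.16 to 0.02 for IL1RL1 242809_at and -0.07 to 0.33 for IL1RAP 210233_at.

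For seminal plasma versus TGFB3, median centring gave -0.07 for IL1A 208200_at, -0.23 for IL1RN 212659_s_at, -0.19 for IL1RN 216244_at and -0.28 for IL1RL1 210442_at, for which quantile normalization gave -0.34. Array weights gave -0.23 for IL1A 208200_at, 0.03 for IL1B 205067_at, 0.14 for IL1RN 216243_s_at and -0.34 for IL1RL1 210442_at. Without seminal plasma replicates 3 and 4 the values were 0.06 for IL1A 210118_s_at, -0.6 for IL1A 208200_at, 0.62 for IL1B 205067_at, 0.35 for IL1RN 216243_s_at, -0.41 for IL1R1 215561_s_at, -0.37 for IL1RL1 210442_at and 0.02 for IL1RAP 205227_at. With 1 array left out the ranges were -0.15 to 0.55 for IL1A 208200_at, -0.53 to 0.21 for IL1B 205067_at, -0.05 to 0.21, -0.2 to 0.16 and -0.11 to 0.3 for IL1RN 212659_s_at, 216243_s_at and 216244_at, and -0.21 to 0.23 for IL1RL1 210442_at. IL1RL1 234066_at against control passed with log2 of signal plus 16 (1.84, limma adjusted p 0.0492), with the filter on dim probe sets (adjusted p 0.0426), with a trended robust fit (adjusted p 0.0312) and without seminal plasma replicate 2 (adjusted p 0.0313). Signal near the floor limits IL33, IL1RL1 210442_at and IL1RN 216245_at and 216244_at, and 4 member probe sets were not tested under the filter on a mean signal of at least 50.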

Other observations

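Beyond the genes that the naming rule picks, a few pathway genes were looked at after their values were seen. CASP1, which cuts the precursors of IL1B and IL18, gave 4957, 6573, 3660 and 4264 with seminal plasma, 7382, 5431, 5335 and 5550 with TGFB3, and 7340, 8176, 8936 and 8383 in control. All seminal plasma arrays were below all controls, yet the log2 fold change of -0.79 ± 0.20 did not pass (limma adjusted p 0.0589), nor did that of TGFB3, -0.48 ± 0.20 (adjusted p 0.597). IRAK2, a kinase of the receptor complex, had a log2 fold change of 0.77 ± 0.24 with seminal plasma (limma adjusted p 0.09) and 0.84 ± 0.24 with TGFB3 (adjusted p 0.312). NFKBIZ, an NF-kappaB cofactor, had 0.77 ± 0.21 with seminal plasma (limma adjusted p 0.0674) and -0.04 with TGFB3 (adjusted p 1.0).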
